A study of Mus musculus with 8 samples.

Results

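The transcripts of 10 regulators of muscle alternative splicing were examined in mouse muscle stem cells: Mbnl1, Mbnl2 and Mbnl3, Celf1 and Celf2, Rbfox2, Rbm24, Qk, Ptbp1 and Ptbp2. The genes were chosen by name, and all 10 of them were found among the 57180 genes of the count and TPM tables. Of these, 9 held enough fragments to enter the test over 15660 genes, and Mbnl3 did not. These cells, which rebuild skeletal muscle after injury, had been sorted by flow cytometry and sequenced without culture. There were 4 control libraries (titled WT, replicates 2, 5, 7 and 8) and 4 libraries titled RhoA het (replicates 5, 6, 7 and 8), from SC-RhoAfl/+ mice, which carry 1 floxed RhoA allele; the genotype field of these samples reads RhoA knockdown. The Cre driver, the age of the mice and any pooling of animals are not given in the sources used here, so the p-values measure the spread between these samples, which may be partly technical. The series was designed to look for changes in expression and in splicing after a reduction of RhoA, a small GTPase that controls actin tension. The deposited values are sums over the exons of each gene, so they give the amount of each regulator's RNA and not the splice forms it makes.

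Alternative splicing lets a gene give different proteins in stem cells, in differentiating myoblasts and in mature fibres, and these RNA-binding proteins set much of that choice in muscle. MBNL proteins promote the adult pattern of exon use and CELF proteins tend to oppose them, a balance that is disturbed in myotonic dystrophy, where expanded CUG repeats sequester MBNL. RBFOX2, RBM24 and the quaking protein QK bind their own short RNA motifs beside regulated exons and promote muscle patterns, while PTBP1 commonly represses exons and its paralogue PTBP2 takes over part of its role in neurons and during muscle differentiation.

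The libraries held 19138763 to 25606342 assigned fragments. All 10 listed muscle stem cell markers, Vcam1 and Calcr among them, had fragments in each of the 8 libraries, with a summed level of 7933 to 15570 CPM (fragments scaled to a common library total, with TMM scaling between libraries). Pax7, the transcription factor that defines these cells, was at 78.6 to 105.6 CPM in RhoA het against 112.5 to 175.8 in control. Its log2 fold change was -0.51 (SE 0.18, unadjusted p 0.0173 and adjusted p 0.9998 in edgeR, exact permutation p 0.0286). It was the 1 marker of the 10 whose groups did not overlap, beside 1.81% of all genes tested, 0.792% with RhoA het lower. An unadjusted p under 0.05 in edgeR was found for 1 of the 10 markers and for 2.38% of all genes, 0.696% lower. Rhoa, the targeted gene, was at 382.9, 309.2, 272.6 and 333.6 CPM in control replicates 2, 5, 7 and 8, against 252.5, 271.3, 253.2 and 282.1 CPM in the RhoA het libraries 5 to 8. It was 18.4% lower in RhoA het (log2 fold change -0.29, SE 0.13; unadjusted p 0.0495 and adjusted p 0.9998 over all genes in edgeR's quasi-likelihood test, exact permutation p 0.0571), and the groups overlapped. It was lower in 3 of 3 same-numbered pairs, by 0.29, 0.11 and 0.24 in log2 CPM. The counts cover all exons of Rhoa, so a transcript without the floxed part would still be counted. Several libraries stood apart in RNA of other cell types or states. The summed level of 20 cell cycle genes was 639.4 CPM in control replicate 5 and 488.5 in RhoA het replicate 5, against 177 to 250.5 in the other libraries. The 10 endothelial markers summed to 745.1 CPM in RhoA het replicate 6 and to 116.5 to 221.1 elsewhere, and 10 of 10 had a log2 fold change above 0 between the groups. In the fit over the 3 same-numbered pairs, 8 of the 10 were below 0. That fit lacks RhoA het replicate 6 and control replicate 2 and has a term for the number. The 14 myofibre markers were highest in control replicate 5 (596.8 CPM) and RhoA het replicate 6 (562.7 CPM), against 119.8 to 293.4 elsewhere. Xist, which silences an X chromosome, had 5 fragments in control replicate 2, 7 in RhoA het replicate 6 and at least 3539 in each other library. The part of these differences in the results below was not tested unless a value without the library is given. In bulk samples, fewer cells of a type and less RNA per cell cannot be told apart.

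The regulators covered a wide range of transcript level. Levels are given in deposited TPM, fragments scaled by exon length and library so that genes can be compared. That length covers all annotated exons of a gene, used in these cells or not, so order and shares between genes depend on it. Ptbp1 was the highest in control, at 178.8 ± 17.7 TPM (SD, n = 4), above 94.5% of the genes tested. Mbnl2 (125.2 ± 20.1) and Mbnl1 (87.0 ± 26.5) followed, then came Celf1 (65.4 ± 11.1), Rbfox2 (58.5 ± 22.8), Qk (51.7 ± 13.6), Ptbp2 (34.4 ± 9.17), Celf2 (19.2 ± 2.01) and Rbm24 (5.36 ± 2.57). Mbnl3 averaged 0.0464 ± 0.0563 TPM. Only the steps from Ptbp2 down to Celf2, from Celf2 to Rbm24 and from Rbm24 to Mbnl3 separated all 8 libraries of the higher gene from all 8 of the lower one. Within libraries the order was firmer, since Mbnl2 lay above Mbnl1, and Qk above Ptbp2, in 8 of 8 libraries. Rbfox2 and Qk, neighbours in this order, could not be ranked, as each was the higher one in 4 libraries. By CPM, which is not scaled by length, Mbnl1 was the highest in control (mean 510.3), above Mbnl2 (477.6) and Ptbp1 (275.3).

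**Figure D1:**
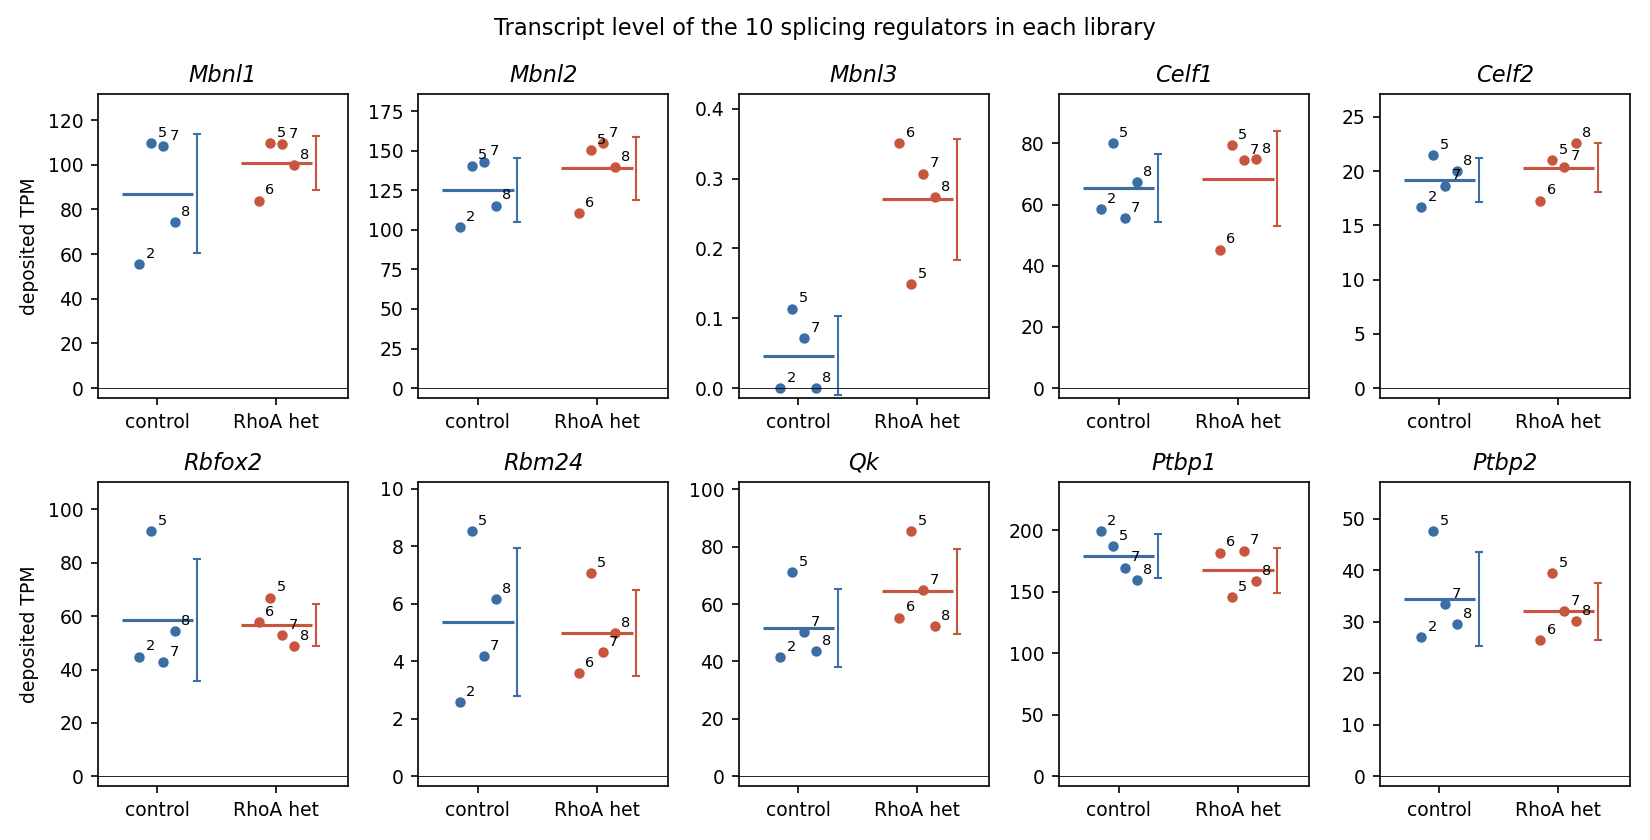
Deposited TPM of the 10 regulators in each library, with 1 panel per gene, its own vertical axis, and points labelled with the replicate number. Horizontal lines are group means and vertical bars are SD (n = 4 each); control and RhoA het overlap for every regulator except Mbnl3, which stays at or below 0.351 TPM.

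None of the 9 regulators tested differed between the groups past the threshold. At an adjusted p under 0.05 in edgeR, 0 of 9 were called, as were 0% of all genes tested, and at an unadjusted p under 0.05 again 0 of 9 against 2.38% of all genes, 1.68% higher and 0.696% lower in RhoA het (lowest unadjusted edgeR p 0.168, for Qk). By CPM the groups overlapped for all 9, while 1.81% of all genes tested had groups that did not overlap, 1.02% with RhoA het higher and 0.792% with it lower. The log2 fold changes, given throughout as RhoA het over control, lay between -0.19 and 0.25 with a median of -0.022, beside -0.00071 over all genes tested; 3 were above 0 and 6 below, and 50.1% of all genes tested lay below 0. The adjusted p was 0.9998 for each of the 9 in edgeR, and their exact permutation p lay between 0.257 and 1 (two-sided, 70 assignments of 4 against 4, smallest possible 0.0286; adjusted over all genes 1).

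**Figure D2:**
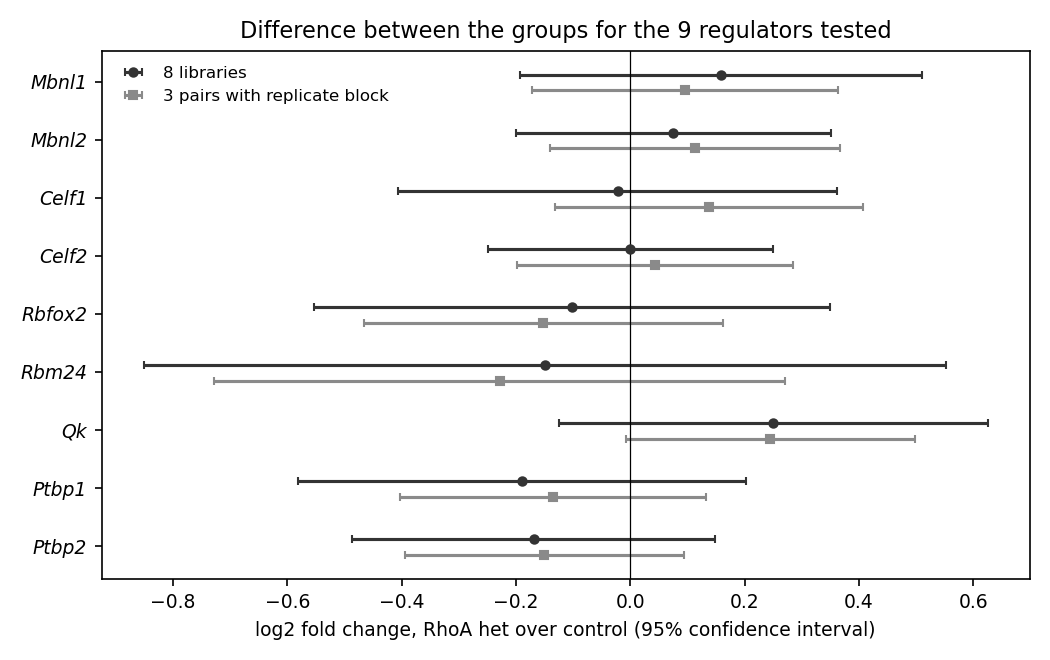
Log2 fold change of the 9 regulators tested, RhoA het over control, with 95% confidence intervals from edgeR. Dark circles use 8 libraries and grey squares the 3 pairs of libraries with the same replicate number as a block; every interval includes 0.

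How large a difference these libraries leave room for differed between genes. The interval of Celf2 was the narrowest, from -15.9% to 18.8% in RhoA het relative to control, and that of Rbm24 the widest, from -44.6% to 46.7%. Most of these regulators varied less between libraries than the typical gene: the biological coefficient of variation was below the median over all genes tested, 27.7%, for 8 of the 9. It was 15.02% for Celf2, 15.6% for Mbnl2, 17.4% for Ptbp2, 18.3% for Mbnl1, 19.3% for Qk, 19.7% for Celf1, 19.9% for Ptbp1 and 22.3% for Rbfox2. Rbm24, at 34.7%, was the exception. Values per library are given below in a fixed order, control 2, 5, 7, 8 and then RhoA het 5, 6, 7, 8.

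The muscleblind genes Mbnl1 and Mbnl2 encode the main zinc-finger proteins of this family in adult tissues. Mbnl1 (ENSMUSG00000027763.14; mm39 chromosome 3, 60380251 to 60537171) was at 55.7, 109.7, 108.4 and 74.4 TPM in control. In RhoA het it was at 109.7, 83.9, 109.2 and 99.8 TPM. Control replicates 2 and 8 were the lowest, and the other control libraries matched the highest RhoA het ones. The log2 fold change was 0.16 (SE 0.16; unadjusted p 0.338 in edgeR, exact permutation p 0.314), and 0.058 without control replicate 2. Mbnl2 (ENSMUSG00000022139.18; mm39 chromosome 14, 120513081 to 120669109) was at 101.7, 140.6, 143.1 and 115.2 TPM in control and at 150.5, 110.7, 154.8 and 139.5 in RhoA het. Control replicate 2 and RhoA het replicate 6 were the lowest of their groups, and the groups overlapped. Its log2 fold change was 0.075 (SE 0.12; unadjusted p 0.557 in edgeR, exact permutation p 0.457), and 0.015 without RhoA het replicate 7.

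The balance within the family was similar in both groups. Mbnl2 supplied 59.6% ± 3.91 of the summed Mbnl TPM in control and 57.8% ± 0.781 in RhoA het (SD, n = 4 each), and Mbnl1 40.4% ± 3.89 and 42.0% ± 0.756. The ratio of Mbnl2 to Mbnl1 in TPM ran from 1.28 to 1.83 in control and from 1.32 to 1.42 in RhoA het. The RhoA het values all fell inside the control range, whose top was control replicate 2.

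Mbnl3, the X-linked paralogue, which is best known from proliferating myoblasts and embryonic tissue, was nearly absent. Mbnl3 (ENSMUSG00000036109.18; mm39 chromosome X, 50206146 to 50295409) had 0, 6, 5 and 0 fragments in the control libraries. The RhoA het libraries held 8, 21, 18 and 14 fragments. Every RhoA het library thus lay above every control library (exact permutation p 0.0286, two-sided, the smallest that 4 against 4 libraries can give). This includes the step from control replicate 5 to RhoA het replicate 5, 0.297 and 0.402 CPM of the unscaled library total, whose exact Poisson intervals (0.109 to 0.645 and 0.174 to 0.792) overlap widely. For the counts of 0, the same intervals reach up to 0.166 such CPM in control replicate 2 and 0.171 in control replicate 8. Pooled over libraries, the level was 0.123 CPM in control (11 fragments) and 0.736 in RhoA het (61 fragments), a ratio of 6.00 with a 95% interval of 3.13 to 12.7 that covers counting error only.

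The difference in Mbnl3 did not pass a test over all genes. Fitted without the filter on low counts, its log2 fold change was 2.52, a value that depends on the prior count, with an unadjusted p of 0.00646 and an adjusted p of 0.854 in edgeR. In DESeq2 it was 2.60 (adjusted p 0.9998), and the adjusted p in edgeR with the replicate block, a fit chosen after seeing the data, was 0.4998. Among 4157 genes with a similar total, 36 to 144 fragments over the 8 libraries, 1.64% had all RhoA het libraries above all control libraries and 1.06% the reverse. Mbnl3 was highest in RhoA het replicate 6, the library with the most endothelial RNA, and without that library its log2 fold change was 2.32 (adjusted p range over the fits leaving out 1 library 0.837 to 0.927 in edgeR). The part of endothelial RNA in the Mbnl3 values was not tested. In the pair of libraries with few Xist fragments, Mbnl3 was at 0 in the control library and at its highest in the RhoA het one. Even in RhoA het, Mbnl3 supplied 0.117% ± 0.0501 of the family's TPM (SD, n = 4), against 0.0185% ± 0.0225 in control. Without control replicate 5 the control share was 0.00947%.

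**Figure D3:**
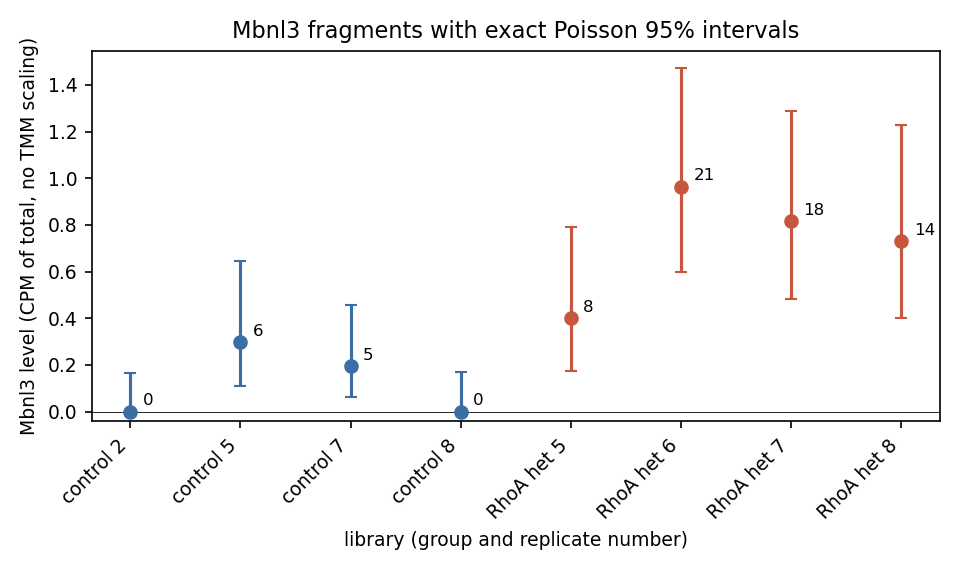
Mbnl3 level in each library, in CPM of the total assigned fragments without TMM scaling (control in blue, RhoA het in red), with exact Poisson 95% intervals and the number of fragments beside each point. The control libraries held 0 to 6 fragments and the RhoA het libraries 8 to 21; the intervals cover counting error only.

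The 250 bases before the annotated start are shown for Mbnl2, the muscleblind gene highest in TPM, and for Mbnl3, the one nearly absent. They are also shown for Rbm24, the most muscle-restricted regulator of the set. The sequences are RefSeq's, on GRCm38.p6, and are not in the coordinates of the count table. Capitals mark CpG dinucleotides in Mbnl2 (chr14:120275419-120275668, plus strand) and Mbnl3 (chrX:51205991-51206240, minus strand), and the E-boxes, CANNTG, in Rbm24 (chr13:46418050-46418299, plus strand).
Mbnl2: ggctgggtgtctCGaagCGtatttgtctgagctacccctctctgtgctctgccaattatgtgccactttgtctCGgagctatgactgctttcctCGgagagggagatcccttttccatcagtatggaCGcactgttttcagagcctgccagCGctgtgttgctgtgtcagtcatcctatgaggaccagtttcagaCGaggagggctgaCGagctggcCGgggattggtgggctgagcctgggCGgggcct
Mbnl3: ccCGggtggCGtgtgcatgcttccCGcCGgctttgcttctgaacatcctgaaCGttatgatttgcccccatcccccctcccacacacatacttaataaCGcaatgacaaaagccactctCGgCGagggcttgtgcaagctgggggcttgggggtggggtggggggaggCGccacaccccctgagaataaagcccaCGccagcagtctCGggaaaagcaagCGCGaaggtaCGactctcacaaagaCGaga
Rbm24: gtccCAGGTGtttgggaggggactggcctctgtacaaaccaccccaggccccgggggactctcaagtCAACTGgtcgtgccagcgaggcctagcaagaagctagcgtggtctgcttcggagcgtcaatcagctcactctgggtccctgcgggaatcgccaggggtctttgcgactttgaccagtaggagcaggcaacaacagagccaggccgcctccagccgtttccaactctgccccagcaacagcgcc
The windows of Mbnl2 and Mbnl3 held 10 and 15 CpG and had a GC content of 57.2% and 59.2%. Those of Mbnl1 held 1 and 33 CpG. A relation of CpG number to transcript level was not tested. The median over 32851 windows of the same length was 6 CpG. Rbm24's window held 2 E-boxes, the core that myogenic transcription factors bind, 1 of them of the form CAGGTG. This motif, or its reverse complement CACCTG, was in 1 of the 14 windows of the set and in 17.2% of all windows, and CAGCTG, which reads the same on both strands, in 0 of 14 and in 13% of all. The CArG box, bound by the serum response factor whose coactivators respond to RhoA, was in 0 of 14 windows and in 1.47% of all windows, searched on both strands. RefSeq windows matched 9 of the 10 genes.

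The CELF genes encode RNA-binding proteins that favour many fetal exon choices and also act on mRNA decay. Celf1 (ENSMUSG00000005506.17; mm39 chromosome 2, 90770727 to 90849842) was at 58.4, 80.2, 55.5 and 67.5 TPM in control. In RhoA het it was at 79.4, 45.3, 74.5 and 74.9 TPM. RhoA het replicate 6 was the lowest of all libraries and the other RhoA het libraries lay in the upper part of the control range. The log2 fold change of -0.022 (SE 0.17; unadjusted p 0.901 in edgeR, exact permutation p 0.886) turned to 0.11 without RhoA het replicate 6. Celf2 (ENSMUSG00000002107.20; mm39 chromosome 2, 6544505 to 7514374) was at 16.7, 21.4, 18.7 and 20.0 TPM in control and at 21.0, 17.3, 20.4 and 22.6 in RhoA het. It was the steadiest regulator of the set, with a log2 fold change of -0.00026 (SE 0.11; unadjusted p 0.998 in edgeR, exact permutation p 1). Celf1 supplied 77.2% ± 1.71 of the summed TPM of both genes in control and 76.7% ± 3.03 in RhoA het (SD, n = 4 each). The ranges were 74.8% to 78.9% and 72.4% to 79.1%. Without length scaling, Celf1 averaged 176.9 and Celf2 159.2 CPM in control. The share thus rests largely on their exon lengths, 8446 and 25884 bases.

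RBFOX2 binds the RNA motif UGCAUG and guides exon choice during myoblast fusion, and RBM24 is a muscle-enriched protein that promotes muscle exons. Rbfox2 (ENSMUSG00000033565.20; mm39 chromosome 15, 76963190 to 77191204) was at 44.8, 91.8, 42.7 and 54.5 TPM in control and at 66.9, 57.7, 52.9 and 48.8 in RhoA het. Control replicate 5 was far above the rest, and the RhoA het libraries lay inside the control range. Its log2 fold change was -0.10 (SE 0.20; unadjusted p 0.623 in edgeR, exact permutation p 0.8), and 0.090 without control replicate 5. Rbm24 (ENSMUSG00000038132.7; mm39 chromosome 13, 46571910 to 46584571) was the least abundant regulator tested, with 66 to 179 fragments per library. It was at 2.58, 8.52, 4.19 and 6.17 TPM in control and at 7.06, 3.60, 4.32 and 4.99 in RhoA het. The ratio of the highest to the lowest library was 3.30, the widest of the 9. The log2 fold change was -0.15 (SE 0.31; unadjusted p 0.644 in edgeR), and 0.063 without control replicate 5. Rbm24 was lowest in control replicate 2 and RhoA het replicate 6 in TPM, and the latter was also high in myofibre markers.

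Quaking, encoded by Qk, binds ACUAA-type motifs and acts on splicing and on the stability and circularisation of RNA. Qk (ENSMUSG00000062078.16; mm39 chromosome 17, 10421530 to 10538783) was at 41.5, 71.2, 50.3 and 43.6 TPM in control and at 85.4, 55.3, 64.7 and 52.2 in RhoA het. Control replicate 5 lay above all RhoA het libraries but replicate 5. Each RhoA het library exceeded its same-numbered control, by 0.30, 0.37 and 0.14 in log2 CPM for numbers 5, 7 and 8. Its log2 fold change, the largest of the 9 in size with all 8 libraries, was 0.25 (SE 0.17, 95% interval -0.13 to 0.62; unadjusted p 0.168 in edgeR, exact permutation p 0.257). Without RhoA het replicate 5 it was 0.12, smaller in size than those of Rbm24 (-0.33) and Ptbp2 (-0.26) in the same fit. Fitted over the 3 pairs with a term for the number, it was 0.25 (SE 0.12; unadjusted p 0.0564 and adjusted p 0.931 in edgeR).

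PTBP1 and PTBP2 bind pyrimidine-rich RNA, and PTBP1 is known to hold down Ptbp2 by causing an exon of its transcript to be skipped. Ptbp1 (ENSMUSG00000006498.17; mm39 chromosome 10, 79690261 to 79700605) was at 199.0, 187.1, 169.5 and 159.4 TPM in control and at 145.5, 181.7, 183.2 and 158.7 in RhoA het. Control replicate 2 was the highest and RhoA het replicate 5 the lowest. The log2 fold change was -0.19 (SE 0.17; unadjusted p 0.305 in edgeR, exact permutation p 0.4), and -0.026 without control replicate 2. Exons of 3 genes on the opposite strand overlap those of Ptbp1, and the counting command set no strand option. Fragments over several genes were not counted, so the number lost to Ptbp1 is not known. The 3 genes themselves held at most 169 fragments in a library. Exons on the opposite strand also overlap those of Rhoa (2 genes, at most 143 fragments) and of Mbnl2 (1 gene, at most 5). Ptbp2 (ENSMUSG00000028134.12; mm39 chromosome 3, 119512391 to 119578115) was at 27.0, 47.6, 33.4 and 29.6 TPM in control and at 39.4, 26.4, 32.1 and 30.1 in RhoA het. The libraries numbered 5 were the highest of each group. Its log2 fold change was -0.17 (SE 0.14; unadjusted p 0.26 in edgeR, exact permutation p 0.286), and -0.070 without control replicate 5. It was lower in RhoA het in 3 of 3 same-numbered pairs, by 0.23, 0.056 and 0.095 in log2 CPM.

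Ptbp1 was the main paralogue in all 8 libraries. It supplied 83.9% ± 3.41 of the summed TPM of Ptbp1 and Ptbp2 in control and 83.8% ± 3.66 in RhoA het (SD, n = 4 each). The ratio of Ptbp1 to Ptbp2 in TPM was 7.36, 3.93, 5.07 and 5.39 in control and 3.69, 6.87, 5.71 and 5.27 in RhoA het. Both libraries numbered 5 were the lowest, and control replicate 2 and RhoA het replicate 6 the highest. The group ranges, 3.93 to 7.36 and 3.69 to 6.87, nearly coincided.

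The same libraries recurred across the set. By CPM, the libraries numbered 5 were the highest pair of all 8 for Rbfox2, Rbm24, Qk and Ptbp2, 4 of 9 regulators, and the lowest pair for 0. By TPM they were the highest pair for these 4 and also for Celf1 and, narrowly, Mbnl1 (109.7 and 109.7 against 109.2 in RhoA het replicate 7). These libraries had the highest cell cycle sums and also the lowest sums of 20 genes of the response to tissue dissociation, 31060 CPM in control replicate 5 and 29870 in RhoA het replicate 5, against 47110 to 67550 elsewhere; the part of either in the pattern was not tested. Over all genes tested, 11.3% had both as the highest pair by CPM and 10.6% as the lowest. In CPM, Ptbp1 was highest in control replicate 2 (365.1) and RhoA het replicate 6 (280.1), a pair that was highest for 6.39% of genes. In TPM, control replicate 5 (187.1) and RhoA het replicate 7 (183.2) lay above RhoA het replicate 6 (181.7). The mean difference between same-numbered libraries was smaller than that between libraries of 1 group for 6 of 9 regulators and for 65% of all genes. For Rbm24 these differences were 0.23 and 0.52 in log2 CPM, for Ptbp2 0.13 and 0.26, and for Celf2 0.067 and 0.13. Mbnl2, Celf1 and Ptbp1 went the other way, with 0.14 and 0.11 for Mbnl2, 0.16 and 0.15 for Celf1, and 0.19 and 0.15 for Ptbp1.

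**Figure D4:**
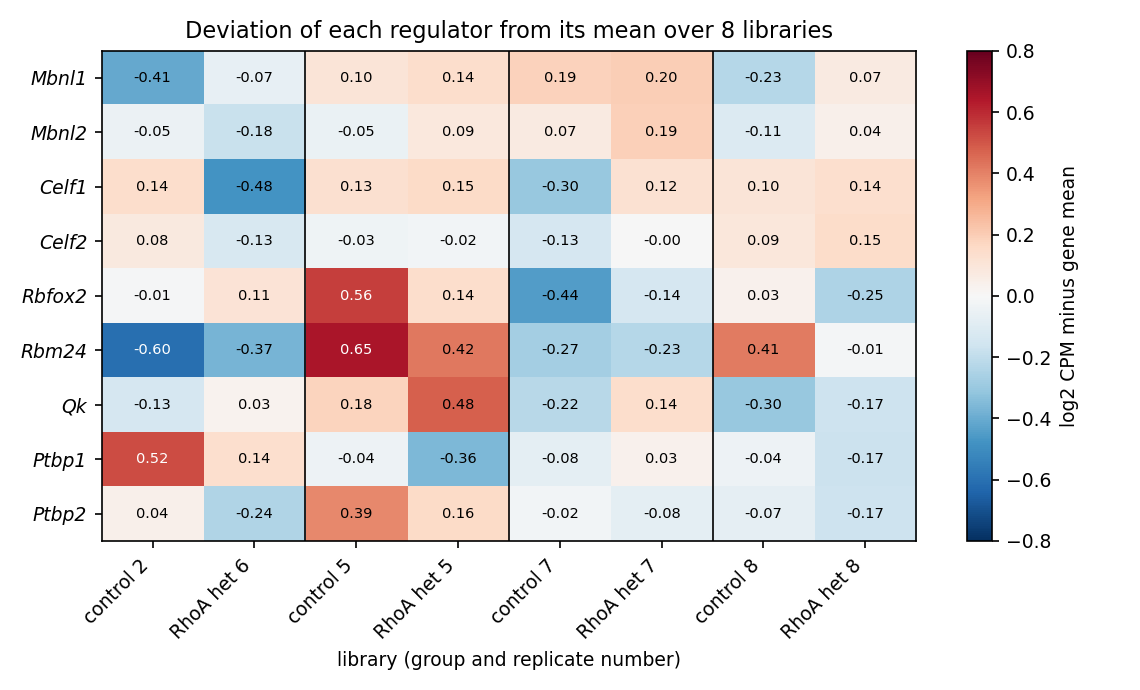
Log2 CPM of the 9 regulators tested minus each gene's mean over the 8 libraries, with libraries ordered by replicate number and the number in each cell giving the deviation. Rbfox2, Rbm24, Qk and Ptbp2 are raised in both libraries numbered 5; on this CPM scale Ptbp1 stands out at 0.52 in control replicate 2 and Celf1 at -0.48 in RhoA het replicate 6.

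Within same-numbered pairs, the sign was the same in 3 of 3 pairs for 6 of the 9 regulators and for 26.2% of all genes. Of these 6, Mbnl1, Mbnl2, Celf1, Celf2 and Qk, 5 in all, were higher in RhoA het, as were 13.6% of all genes tested, and Ptbp2 was lower, as were 12.5%. Most of these steps were small. Those of Mbnl1 were 0.042, 0.014 and 0.30 in log2 CPM for numbers 5, 7 and 8, those of Mbnl2 0.14, 0.12 and 0.16, those of Celf1 0.027, 0.43 and 0.030, and those of Celf2 0.012, 0.13 and 0.057. With the replicate block, 0 of 9 regulators passed an adjusted p of 0.05 in edgeR (0.0127% of all genes did), and 0 of 9 an unadjusted one (5.26% of all genes).

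Across the 8 libraries, Celf1 and Celf2 varied together (Pearson's r 0.77 of log2 CPM, n = 8), as did Rbfox2 and Ptbp2 (0.66) and Mbnl1 and Mbnl2 (0.65). Mbnl1 and Ptbp1 ran in opposite directions (-0.73), and so did Rbm24 and Ptbp1 (-0.68). These are descriptions over libraries that share replicate numbers and scaling. Among 7906 other genes (7907 for Rbm24) averaging at least 10 CPM, the closest to Ptbp2 was Hmgb2 (0.97), which encodes a chromatin protein abundant in dividing cells, and the closest to Ptbp1 was Sumo3 (0.99), a gene for a small protein modifier. The closest genes to the others were Acbd5 for Mbnl1 (0.97), Tax1bp1 for Mbnl2 (0.97), P3h2 for Celf1 (0.99), Atp6ap1 for Celf2 (0.97), Hacd3 for Rbfox2 (0.97), Wbp1 for Rbm24 (0.97) and Snx27 for Qk (0.98). The next in rank were 3110039I08Rik for Mbnl1 (0.96), Srek1, a splicing regulator gene, for Mbnl2 (0.97), G6pc3 for Celf1 (0.98), Atp10a for Celf2 (0.97), Itsn1 for Rbfox2 (0.93), Cog4 for Rbm24 (0.96), Bmp2k for Qk (0.98), Aar2 for Ptbp1 (0.96) and 2310057M21Rik for Ptbp2 (0.97). Each of the 9 regulators had a gene at 0.97 or above, so such a value singles out none of them.

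Related RNA-binding regulators were taken from a list of 35 other genes. Of these 25 were tested, and 0 passed an adjusted or an unadjusted p of 0.05 in edgeR, against 0% and 2.38% of all genes tested. With all 8 libraries 11 were above 0 and 14 below (median log2 fold change -0.039), where 50.1% of all genes lay below 0. With the replicate block over the 3 pairs, 12 of the 25 lay below 0. Ptbp3, another PTB paralogue, averaged 97.2 TPM in control and 102.1 in RhoA het, and so exceeded Ptbp2 in mean level in both groups. Rbm38, the close relative of Rbm24, averaged 76.0 and 73.8 TPM, far above Rbm24, and Rbm20, a regulator of titin splicing in heart, 18.4 and 18.6. Rbfox1, the paralogue prominent in mature muscle and neurons, averaged 0.588 and 0.535 TPM. The genes with the smallest p were Raver2, which encodes a PTB-binding cofactor (log2 fold change 0.40, SE 0.23, exact permutation p 0.143), Msi1 (-0.43, SE 0.26, exact permutation p 0.2) and Rbm4 (-0.39, SE 0.27, exact permutation p 0.143). Raver1 had 0 fragments in all libraries; exons of 3 other annotated genes overlap its own, and fragments over several genes were not counted.

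A list of 36 transcripts known as splicing targets of these proteins in muscle was read for total RNA only, of which 35 were tested. None passed an adjusted or an unadjusted p of 0.05 in edgeR (0 of 35; 23 above 0 and 12 below, median log2 fold change 0.058). The smallest p belonged to Camk2g, a calcium-dependent kinase gene (log2 fold change 0.41, SE 0.24, exact permutation p 0.171), to the insulin receptor gene Insr (0.37, SE 0.22, exact permutation p 0.286) and to Fxr1 (-0.15, SE 0.12, exact permutation p 0.171). Atp2a1, the muscle calcium pump gene with a well-known MBNL-dependent exon, was at 36.5 and 26.4 TPM on average (log2 fold change -0.42, SE 0.70). It was 1 of the 2 genes called with the replicate block (log2 fold change -1.40, adjusted p 0.0349 in edgeR). The other was the myofibre marker Acta1 (-1.32, adjusted p 0.0275 in edgeR). In this fit 13 of the 14 myofibre markers were below 0, and Tnnc2 was not fitted. The same-numbered pairs also differed in the myofibre sum, at 596.8 and 292.1 CPM for number 5 in control and RhoA het. The sums were 293.4 and 140.1 for number 7, and 170.2 and 119.8 for number 8. The part of myofibre RNA in the Atp2a1 value was not tested.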

How the data were processed

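RNA was measured in 8 libraries, 4 a group, grouped by the sample titles. The authors deposited counts per gene, made per the file headers with featureCounts 1.6.4, which counted read pairs over exons summed per gene of GENCODE mouse release 34 on mm39, without a strand option, from STAR alignments. TPM per gene, also deposited by the authors, equalled counts divided by exon length and scaled per library (largest relative difference 5e-15). The header names 10 alignment files; 8 libraries are in the table and the others were not analysed here. Symbols came from an older GENCODE release, matched on identifiers without versions, for 51884 of 57180 genes. edgeR 4.0.16 (R 4.3.3) was run on the counts with filterByExpr, TMM and the quasi-likelihood test over all 8 libraries, adjusted over all 15660 genes by Benjamini-Hochberg, and tested on simulated data. Log2 CPM used a prior count of 2. SE and intervals came from the F statistic. Single genes were also given a two-sided exact permutation test. Numbers 5, 7 and 8 occur in both groups. Same-numbered deviations from the group means correlated at 0.544, 0.231 and 0.488, so the block over these 3 pairs was used as an alternative fit; the pairing comes from the titles and this check. DESeq2 1.42.0 and limma 3.58.1 were alternatives. Named genes were the members, Rhoa, the 3 genes of each list with the smallest p, the 2 genes most like each member, and checks. Paralogues, Atp2a1 and Acta1 were named after their values were seen. The members, lists and tests were chosen with earlier results of these data known. Other marker lists, given as the summed CPM over libraries, were fibro-adipogenic (4534 to 10830), mural (856.6 to 2528), Schwann (783.4 to 1293), immune (95.3 to 359.5) and erythroid (1.86 to 319.8).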

Additional observations from a re-analysis of the deposited data

Results flagged for a closer look

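A library stood apart from the other 3 of its group, with Dixon's ratio above its 95% critical value, in 3 of 28 groups of values examined, where chance gives about 1.4. Celf1 was at 140.6 CPM in control replicate 7, with the nearest control library at 186.5 CPM (ratio 0.91). Celf1 was also at 124.4 CPM in RhoA het replicate 6, with the nearest library of that group at 189.0 CPM (ratio 0.944). Ptbp1 was at 365.1 CPM in control replicate 2, with the nearest control library at 247.9 CPM (ratio 0.944). In TPM, Celf1 in control replicate 7 (55.5) lay close to control replicate 2 (58.4), and Ptbp1 in control replicate 2 (199.0) close to control replicate 5 (187.1), so both gaps depend on the scaling between libraries. Celf1 in RhoA het replicate 6 stayed apart in TPM, at 45.3 with the nearest library at 74.5.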

How the results depend on the processing

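Mbnl3 had 0 to 21 and Rbm24 66 to 179 fragments a library, the lowest depths of the set. The count of genes called was 0 with all 8 libraries, 0 in each fit leaving out a library, 2 with the replicate block over the 3 pairs and 139 with that block and no filter on low counts, a fit added after seeing the data; the cause was not tested. The block changed the call of 0 regulators: 0 of 9 were called under each of 19 alternatives in edgeR, DESeq2 and limma, and 0 had an unadjusted p under 0.05 in any. Mbnl1, Mbnl2, Qk, Ptbp1, Ptbp2 and Rhoa kept their sign in all 19 but moved in size when 1 library was left out, over 0.058 to 0.25 for Mbnl1, 0.015 to 0.14 for Mbnl2, 0.12 to 0.35 for Qk, -0.27 to -0.026 for Ptbp1, -0.26 to -0.070 for Ptbp2 and -0.37 to -0.21 for Rhoa. Mbnl3, fitted without the filter, kept its sign in its 11, with log2 fold changes of 1.96 to 3.25 and adjusted p of 0.4998 to 0.9998. Signs turned in 9 of the 19 alternatives for Celf1, 10 for Celf2, 3 for Rbfox2 and 1 for Rbm24. Celf1 was at 0.048 on log2(TPM + 1) and 0.048 on log2(TPM + 0.1) in limma, 0.035 without TMM, 0.14 with the replicate block, 0.13 in the same 6 libraries without it and 0.045 with the number as a random effect. Celf2 was at 0.077, 0.081, 0.050, 0.043, 0.042 and 0.027 under these, and Rbfox2 at 0.014 and 0.015 on the TPM scales. The median over all genes moved to 0.068 and 0.086 on the TPM scales. Leaving out each library gave -0.12 to 0.11 for Celf1, -0.054 to 0.039 for Celf2, -0.24 to 0.090 for Rbfox2 and -0.33 to 0.063 for Rbm24. Shares of paralogues in control family TPM moved by less than 1 SD without each control library and with TMM scaling.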
